A study of Mus musculus with 6 samples.

Results

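The region described here is the desmosomal cadherin cluster of the mouse, read as chromosome 18 from 19900001 to 20900000 on the mm9 genome build, a stretch of 1 Mb. It was examined in peak lists of Grhl3, a grainyhead-like transcription factor needed for the skin barrier to form. A peak is a stretch where a caller found more chromatin immunoprecipitation reads than its background, and a peak belonged to the region when its centre fell within these limits. Of the 34098 peaks in the 4 deposited lists, 10 met this rule. They comprised 4 of the 11619 peaks of E16.5 replicate 1, 3 of the 9685 of replicate 2, 1 of the 4820 of the depilation list and 2 of the 7974 of the imiquimod list.

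The E16.5 lists are from whole back skin of embryos, with 2 replicate libraries. The depilation list (day 4) and the imiquimod list come from adult epidermis, with 1 library each. Imiquimod activates Toll-like receptors and causes a psoriasis-like inflammation of the skin. The same custom Grhl3 antibody served all 4 libraries. The labels give neither a genotype nor a strain, and no untreated adult Grhl3 library was analysed here. Embryonic and adult groups differ in tissue as well as in age, since the epidermis of adults was freed from dermis with dispase. Whether separate animals gave the E16.5 replicates is not stated in the labels.

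Desmosomes are the junctions that tie neighbouring keratinocytes together and anchor their keratin filaments. Their adhesive parts are cadherins of 2 families, the desmocollins and the desmogleins, whose outer domains bind between cells and whose inner ends hold plakoglobin and plakophilins. In epidermis, Dsg3 and Dsc3 are best known from the lower layers and Dsg1 and Dsc1 from the upper, differentiated layers. Loss of adhesion by Dsg3 or Dsg1 underlies the blistering diseases pemphigus vulgaris and pemphigus foliaceus, in which antibodies attack these proteins.

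All 6 named members of the cluster were found by symbol in the RefSeq gene table of GRCm38.p6, which gave the order of the genes. The desmocollin side comes first, with Dsc3, Dsc2 and Dsc1, which encode the 3 desmocollins. The desmogleins follow in the order Dsg1c, Dsg1a, Dsg1b, Dsg4, Dsg3 and Dsg2. Dsg1a, Dsg1b and Dsg1c are mouse copies of desmoglein 1, the target in pemphigus foliaceus. Dsg4 is known from the hair follicle, where its loss gives fragile hair. Dsg3 encodes the pemphigus vulgaris antigen, and Dsg2 encodes the desmoglein of simple epithelia and heart muscle. These 9 cadherin genes follow each other without another protein-coding gene between them, and Ttr, which encodes the thyroid hormone carrier transthyretin, and B4galt6, a galactosyltransferase gene, come next. That build is not the build of the peaks, so no peak is assigned here to a gene, promoter, exon or intron, and all positions below are 1-based on mm9. For the same reason it was not checked on mm9 that the region holds the whole cluster, and the values below belong to the region and not to single cadherin genes.

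Along the region the peaks fell into a first stretch with none, a middle stretch held by peaks of different lists, and a close pair at the far end. The first 255 kb of the region carried no peak of any list. This was part of an empty stretch of 313 kb, from 19841998 to 20155125, that began at an imiquimod peak before the region. On chromosome 18 as a whole, 43 of 892 stretches between peaks were at least this long, and their median was 63.7 kb.

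The first peaks of the region were from E16.5 replicate 2. They lay at 20155126 to 20155412, with a score of 58.65, and at 20171959 to 20172128, with a score of 69.53. The sources used here do not say what the score measures, so it was read as a rank within its own list, as a percentile in which 100 is the best. The first of these peaks stood at percentile 34.8 of its list and the second at 60.0. The nearest replicate 1 peak was 187 kb from the first and 171 kb from the second.

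The next peaks were from E16.5 replicate 1 and lay close together. One was at 20342820 to 20343127, scored 59.13 and stood at percentile 33.3. Its neighbour, which began 6594 bp past its end, was at 20349721 to 20350014, scored 64.28 and stood at percentile 43.2. Both were below the median score of their list, 69.06. Replicate 2 had its nearest peaks 171 kb and 178 kb away, so here too only 1 of the E16.5 libraries gave a peak.

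Both imiquimod peaks followed, and they differed in rank. The one at 20504669 to 20504877 scored 57.62 and stood at percentile 22.6 of its list. By the authors' deposited values it held 23 tags at a fold enrichment of 7.63 and a false discovery rate (FDR) of 7.28%. The other, at 20594120 to 20594427, scored 75.33 and stood at percentile 57.3, with 29 tags, a fold enrichment of 6.32 and an FDR of 4.35%. The medians of the whole imiquimod list were 29 tags, a fold enrichment of 6.65 and an FDR of 5.23%. Its highest FDR was 10%, so the first peak had a higher FDR than the median and the second a lower one. Both fold enrichments of the region lay within the middle 50% of the list, from 5.82 to 7.69, and their order by fold was the reverse of their order by score. The nearest depilation peak was 356 kb from the first and 267 kb from the second.

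The lowest and the highest scoring peak of the region, relative to its own list, were both from E16.5 replicate 1. The lowest, at 20640186 to 20640387, scored 50.31, close to the lowest score of that list, 50.01, and stood at percentile 1.14. The highest, at 20716502 to 20717059, scored 109.47, stood at percentile 78.0 and ranked 2558 of 11619. At 558 bp it was also the widest peak of the region and wider than the median of its list, 445 bp. The other 3 replicate 1 peaks were between 202 and 308 bp wide. The nearest peak of another list to the highest scoring one was an imiquimod peak 122 kb away, and the nearest replicate 2 peak was 143 kb away.

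The far end of the region held the closest approach of any 2 lists. A replicate 2 peak at 20860425 to 20860602, with a score of 51.12 and at percentile 5.77, lay 573 bp from the only depilation peak. The depilation peak, at 20861175 to 20861317, scored 56.17 and stood at percentile 33.0 of its list. Both were narrower than their list medians, at 178 bp and 143 bp against 232 bp and 204.5 bp, and they did not overlap. Only the depilation peak was below the lower quartile of its list, 170 bp, that of replicate 2 being 177 bp.

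**Figure D1:**
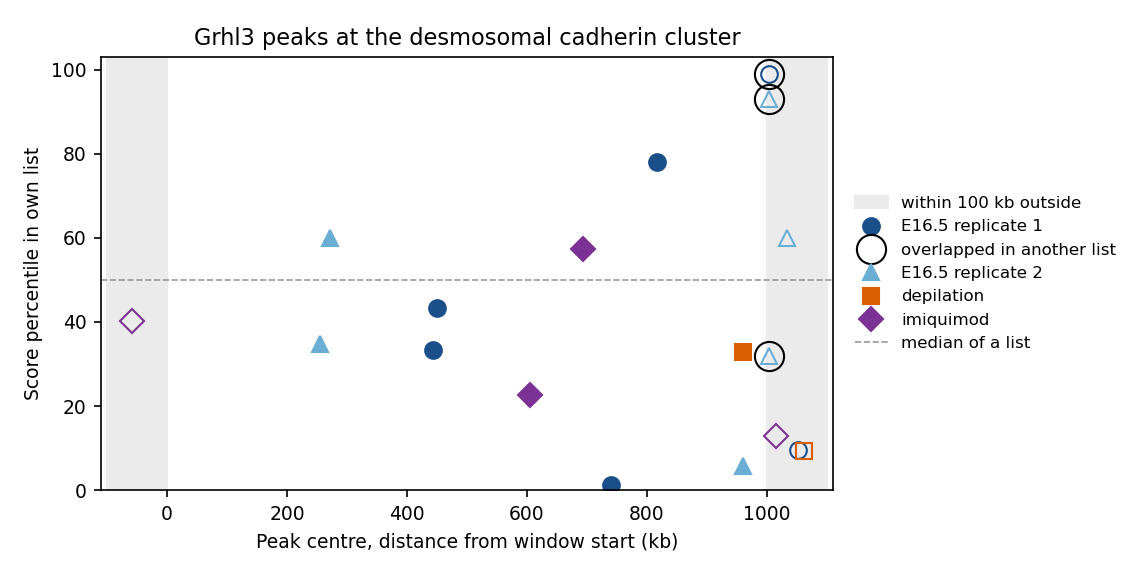
The peaks of the region and of the 100 kb on each side (grey), by distance of the peak centre from the start of the region (kb, horizontal) and by score percentile within the peak's own list (vertical). Filled symbols are the 10 peaks of the region, open symbols lie outside it, and black circles mark peaks overlapped in another list, all 3 of which lie just past the far end.

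Across the region, 3 of the 10 peaks stood above the median score of their list. These were 1 peak of each E16.5 replicate and 1 imiquimod peak. The median percentile of the 10 was 34.1, with a lowest of 1.14 and a highest of 78.0, against a median of 46.9 for the other 1153 peaks of chromosome 18. By list, the median of the region was 38.3 of 4 peaks in replicate 1, 34.8 of 3 peaks in replicate 2, 33.0 for the 1 depilation peak and 39.9 for the 2 imiquimod peaks. The rest of chromosome 18 stood at 47.6, 47.0, 43.9 and 47.1 in the same order. In every list the region's median was thus the lower, on 1 to 4 peaks, and this difference was not tested. Of the 10, 0 were among the 1000 best scoring peaks of their list. Those 1000 make up 8.61% and 10.3% of the E16.5 lists, 20.7% of the depilation list and 12.6% of the imiquimod list, so a count of 0 of 10 is near what these shares give.

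Within these limits the density of peaks was below that of the rest of the chromosome in every list, by amounts the counts cannot resolve. Peaks of the 4 lists together spanned 87.7 Mb of chromosome 18, of which the region is 1 Mb. In E16.5 replicate 1, 4 peaks in the region compared with 4.16 per Mb over the rest, a ratio of 0.961. The ratio was 0.748 in replicate 2, from 3 peaks against 4.01 per Mb. It was 0.519 after depilation, from 1 peak against 1.93 per Mb, and 0.626 after imiquimod, from 2 peaks against 3.19 per Mb. The exact 95% Poisson intervals of these counts ran from 1.09 to 10.2 and from 0.619 to 8.77 peaks in the E16.5 replicates, from 0.0253 to 5.57 after depilation and from 0.242 to 7.22 after imiquimod. Each interval holds the density of the rest of the chromosome, so at these counts no difference in density was detectable in either direction. The direction also rests on the limits chosen. With the region widened by 0.1 Mb on each side the ratios were 1.21 and 1.25 in the E16.5 replicates, 0.869 after depilation and 1.05 after imiquimod, and with it narrowed by as much the ratio was 1.20 in replicate 1. Replicate 1 peaks shared with replicate 2 numbered 0 in the region (upper limit of the interval 3.69) against 1.36 per Mb over the rest. The intervals cover counting error only, and the depth of the libraries is unknown.

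Among the 85 other windows of 1 Mb laid end to end along chromosome 18, the region was in the middle or lower part of the order. For replicate 1, 35 windows held more peaks, 12 as many and 38 fewer, and the fullest held 16. For replicate 2, 46 windows held more and 26 fewer. The depilation list had more peaks in 50 windows and fewer in 15, all of the latter empty. The imiquimod list had more peaks in 46 windows and fewer in 20. With all lists added, the region's 10 peaks compared with a median of 11 and a middle 50% of 9 to 17.

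**Figure D2:**
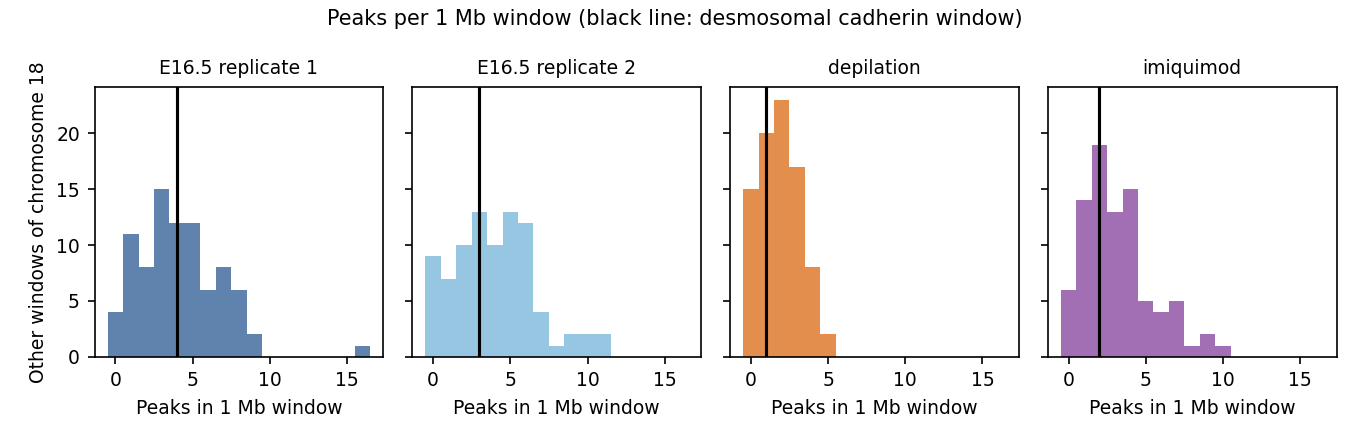
Number of the 85 other 1 Mb windows of chromosome 18 (vertical) by the number of peaks they hold (horizontal), one panel per list. The black line marks the desmosomal cadherin region, at 4, 3, 1 and 2 peaks from left to right, within the bulk of each distribution.

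No peak of the region recurred. Replicate 2 overlapped 0 of the 4 replicate 1 peaks (by at least 1 bp), against 32.5% of that whole list. Replicate 1 overlapped 0 of the 3 replicate 2 peaks, against 41.7% of that list. Overlap with any of the other 3 lists was also 0 of 4 in replicate 1 (42.7% of the list) and 0 of 3 in replicate 2 (44.2%). It was 0 of 1 after depilation (55.6%) and 0 of 2 after imiquimod (30.2%). The exact 95% binomial (Clopper-Pearson) interval for 0 of 4 reaches 60.2%, for 0 of 3 70.8%, for 0 of 2 84.2% and for 0 of 1 97.5%. Each of these intervals holds the share of the whole list, so the counts per list are too small to set the region apart.

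Merging overlapping peaks left the 10 peaks as 10 separate sites, each with 1 peak of 1 list. Sites with peaks of at least 2 lists numbered 5229 of 24997 over the genome and 166 of 893 on chromosome 18, which is 18.6%. Sites in more than 1 of the 3 conditions, where an E16.5 site needs a peak in both replicates, numbered 0 of 10 here, against 9.99% of the 24997 sites of the genome and 80 of the 893 on chromosome 18. With a peak in either E16.5 replicate taken as enough, the count was 0 of 10, against 14.1% of all sites and 108 of the 893 on chromosome 18. Both counts by condition follow from each site of the region having 1 peak of 1 list, and are not separate results.

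**Figure D3:**
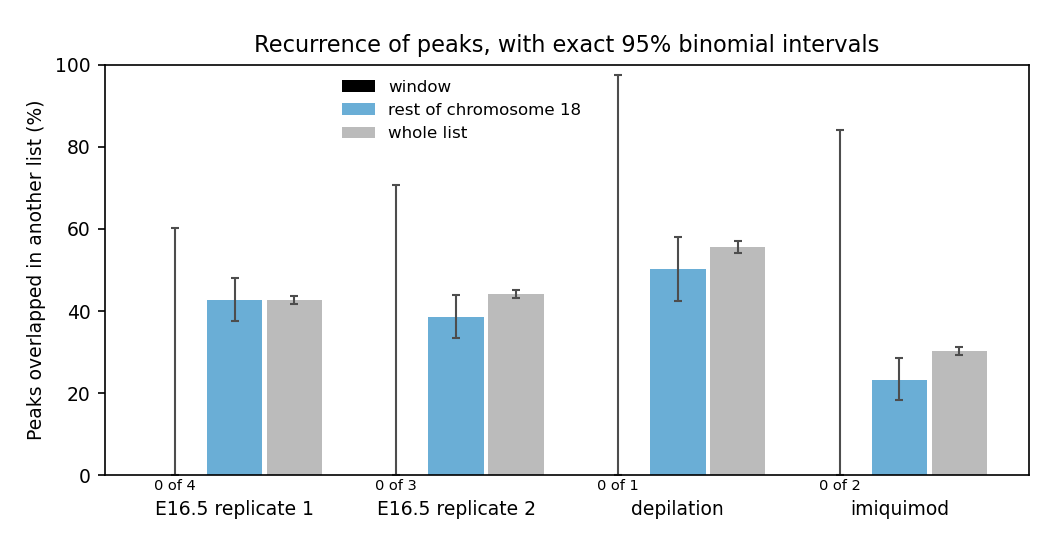
Share of peaks overlapped by a peak of any other list (percent, vertical) for each list, in the region (black, with its counts), in the rest of chromosome 18 (blue) and in the whole list (grey). Error bars are exact 95% binomial intervals. The region's share is 0 in each list, with intervals that reach over the other bars.

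The peaks of the region are set here beside peaks of like score. Each list was divided into 10 classes of like size by score. Among the classes that held a peak of the region, the share that recurred was higher at better score in the E16.5 and imiquimod lists. The depilation list had only 1 such class, so no order by score can be read there. In the class of the lowest scoring replicate 1 peak of the region, 6.47% of the peaks were overlapped in replicate 2. The share was 14.3% and 22.7% for the classes of the 2 neighbouring peaks, at 59.13 and 64.28, and 50.4% for that of the highest scoring, at 109.47. In that last class, 68.0% were overlapped in at least 1 other list, and the peak of the region was not. For replicate 2 peaks, 20.1%, 28.6% and 41.6% of the classes of the peaks at 51.12, 58.65 and 69.53 were found in replicate 1. In the class of the depilation peak 38.8% were overlapped in any other list, and in those of the imiquimod peaks 12.8% and 25.8%.

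Some other windows of chromosome 18 had no shared peak, and few of these held at least as many peaks as the region. Of the 85, 20 had no peak overlapped in another list, and 65 had at least 1. Of the 36 windows with a total within 2 peaks of the region's 10, 7 had none, and the median was 3 shared peaks and the highest 9. Of the 59 windows with at least 10 peaks, 3 had none. A replicate 1 peak shared with replicate 2 lay in 54 of the 85 windows.

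Most peaks of the region were farther from those of the other lists than the typical peak of the chromosome, and the depilation peak and its replicate 2 neighbour were not far. The distance to the nearest peak of any other list had a median of 129 kb over the 10 peaks, with a lowest of 0.573 kb and a highest of 187 kb. Over the other 1153 peaks of chromosome 18 the median was 11.9 kb and the highest value 451 kb. In replicate 1 the 4 distances ran from 45.8 to 162 kb, and all were above 43.7 kb, under which 75% of the other replicate 1 peaks of the chromosome lay. In replicate 2, 2 of the 3 distances, 171 and 187 kb, were above the corresponding 54.0 kb, and the third was 0.573 kb. The 2 imiquimod distances were 45.8 and 135 kb, against a median of 33.0 kb and an upper quartile of 91.8 kb over the rest of the chromosome. The depilation peak was 0.573 kb from its nearest, against a median of 0, which is an overlap, and an upper quartile of 34.3 kb. Distances share peaks between lists. The 573 bp between replicate 2 and depilation and the 45.8 kb between replicate 1 and imiquimod each count for both peaks. Neighbouring peaks of a list also share a gap. The 155 and 162 kb of replicate 1 run to the same imiquimod peak, and the 171 and 187 kb of replicate 2 to the same replicate 1 peak. The distances are therefore not independent, and they were not tested. The rest of the chromosome also includes overlapped peaks, at a distance of 0, and the region has none. Overlapped were 84 of 167 depilation peaks, 64 of 277 imiquimod peaks, and 154 of 361 and 134 of 348 E16.5 peaks. The comparison thus does not separate longer distances from the lack of overlap. Distances were not set beside those in windows with a like number of peaks or without a shared peak.

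**Figure D4:**
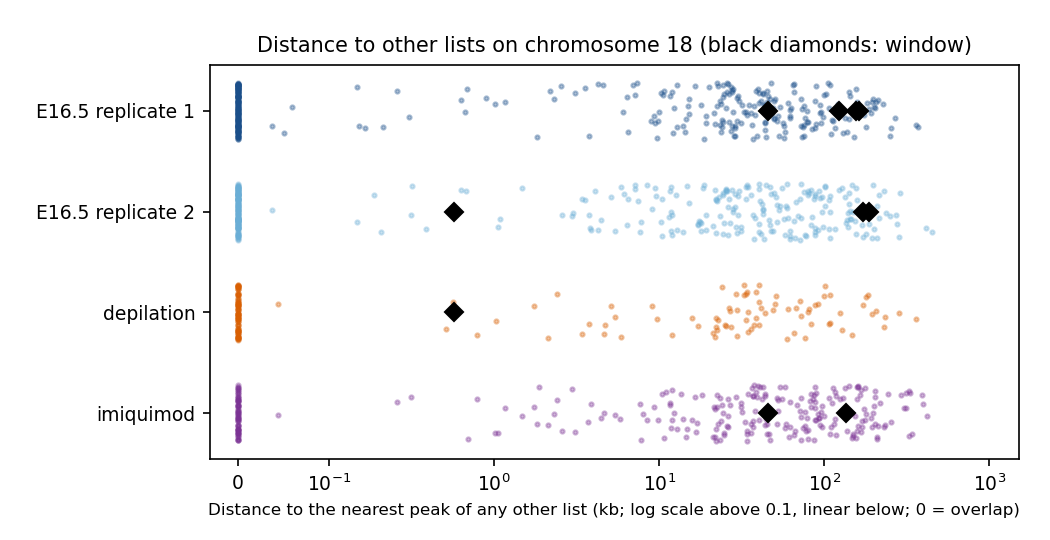
Distance of each chromosome 18 peak to the nearest peak of any other list (kb, horizontal, logarithmic above 0.1 kb and linear below), one row per list with vertical scatter for display. Black diamonds are the 10 peaks of the region, none at 0, and coloured points are the other 1153 peaks.

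A high scoring E16.5 peak found in both replicates lay just outside the limit of the region. The last peak inside was the depilation peak centred at 20861246. Past the limit at 20900000, the first site was centred 4462 bp outside, where replicate 1 had a peak at 20903998 to 20904926 with a score of 265.75, rank 115 of 11619. Replicate 2 had 2 peaks under it, at 20904153 to 20904369 with a score of 128.61 (percentile 93.0) and at 20904580 to 20904812 with a score of 57.94 (percentile 31.9). Neither adult list had a peak that overlapped it, the nearest being an imiquimod peak at 20915912 to 20916337 with a score of 54.70. Of the 8 peaks within 100 kb outside the limits, these 3 were overlapped in another list and the other 5 were not. Before the start of the region the 1 peak within 100 kb outside was the imiquimod peak at 19841791 to 19841997, with a score of 64.08 and an FDR of 5.92%.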

How the data were processed

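Each of the 4 Grhl3 libraries has 1 peak list, and the 2 input libraries were not analysed here. Bowtie 0.12.7, bedtools 2.11.2 and the build mm9 are named in the submitters' processing notes. How peaks were called, and whether inputs entered, is not stated there, and peak names of 3 lists begin with MACS. The deposited score of each peak has no stated meaning, and in the imiquimod list its column name is lost. Per the file headers, that list also holds tag counts, a fold enrichment ratio and an FDR in percent for each peak, all by the authors. These are peak values, so library depth is unknown. BED starts were raised by 1 bp. Sharing means an overlap of at least 1 bp. Percentiles are score ranks within a list, with tied scores at their mean rank. The rest of chromosome 18 runs from the first to the last peak of any list (86.7 Mb without the region), and the other windows were laid end to end from the region's limits.

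No test was run. Counts are set beside the whole list or the chromosome, with exact 95% intervals that treat neighbouring peaks as independent. The region and the gene list were chosen with earlier results of these data known. The rule for naming sites was to account for every site of the region, and to give in full those in at least 2 lists and the best of each list. As no site was in 2 lists, all 10 are given. Placing sites by gene, and counting peaks near other desmosomal genes, needed an mm9 annotation and was not done. Alternatives were other limits, score thresholds, definitions of sharing, E16.5 rules, chromosome backgrounds and an FDR of 5%. The overlap count was tested on 5 simulated pairs of lists. Python 3.11.15 was used with scipy 1.17.1, pandas 2.3.3 and numpy 2.4.6.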

Additional observations from a re-analysis of the deposited data

How the results depend on the processing

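Of 68 values recomputed under the alternatives, 44 stayed within 1.5 times the count, the Poisson interval of the density ratio, or 1 SD of the percentiles, and 24 moved. With limits narrowed by 0.1 Mb on each side, the depilation count and density ratio were 0. With limits widened by 0.1 Mb on each side, the counts were 6 peaks in E16.5 replicate 2, 2 after depilation and 4 after imiquimod. One replicate 1 peak was then found in replicate 2 (1), 2 replicate 2 peaks in replicate 1, and 3 peaks in any other list, all at the site just past the far limit. With the better scoring 50% of each list, the counts were 1, 1, 0 and 1 peaks, the depilation density ratio was 0 and the median percentile was 60.0. With the 1000 best peaks of each list, counts and density ratios were 0 in all 4 lists, and no percentile or share between replicates could be given. The density ratio of E16.5 peaks found in both replicates was 0, and 1 imiquimod peak had an FDR of 5% or less. These moves follow from the construction of the alternatives, which remove or add peaks. Sites in more than 1 condition numbered 0 under every alternative run for them, including without either E16.5 replicate (lowest and highest 0). As no peak of the region overlapped another list, most of these alternatives could only return 0. Only the widened limits and sharing by centres within 500 bp could have given another value. The same holds for the counts of E16.5 peaks found in the other replicate and of peaks overlapped in any other list. Values that could only stay at 0 are among the 44, so that number is not a measure of stability. No paired analysis was possible because only the E16.5 group has 2 replicates and no test was run. Low counts per list limit every comparison made here.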
